A study of Mus musculus with 8 samples.

Results

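The cells described here are GFP-sorted aortic cells of Tgfbr2 knockout mice after 4 months on a high fat diet, set against those after 2 months. They were found by the ending of the cell names in the deposited time-course table of the knockout. They number 3830 of 13056 cells in all, 2253 in the 2 month library (KO 2M) and 1577 in the 4 month library (KO 4M). The assay was 10x Genomics Chromium, which tags the RNA of single cells in droplets, run on GFP-positive cells, which the labels call smooth muscle cells, sorted from digested mouse ascending aorta. Both libraries carry the genotype TGFBetaRiSMC-Apoe, a smooth muscle knockout of the TGF-beta receptor gene Tgfbr2 in Apoe-deficient mice, and both groups were fed HFD (high fat diet). The other libraries are KO on the diet labelled ND and after 1 month of HFD (KO ND, KO 1M), and Apoe-deficient mice without the receptor knockout (genotype Apoe) on ND and after 1, 2 and 4 months of HFD. The labels do not name the Cre driver, the number or the age of the animals behind a library.

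Each genotype and diet had 1 library, so no difference below has a replicate check, and none has a p-value. A level is given as UMIs (unique molecular identifiers, 1 per captured transcript) per 1000000 UMIs of the library (counts per 1000000, CPM). A ratio is the KO 4M level over the KO 2M level, with an exact binomial 95% interval that covers counting error only. The time on diet, the animals and the handling of a library cannot be told apart. In a summed library, fewer cells of a type and less RNA per cell cannot be told apart either, which is why single cells are described after the sums.

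Medial smooth muscle cells hold the aortic wall under tension through a contractile apparatus of smooth muscle actin, myosin and their regulators, anchored to elastic fibres. TGF-beta signals through the receptors Tgfbr1 and Tgfbr2 and is known to sustain this contractile program and the matrix around it. In atherosclerotic and aneurysmal aorta, smooth muscle cells can lose contractile genes and take up genes of other mesenchymal cells, among them chondrocytes, which build cartilage from type II collagen and aggrecan, and osteoblasts, which mineralise matrix.

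KO 2M held 18254302 UMIs and KO 4M 18301826, over 9253 and 9885 listed genes. The median cell had 7631 UMIs in KO 2M and 10988 in KO 4M. Mitochondrial transcripts took 2.02% of UMIs in KO 2M and 1.42% in KO 4M, and ribosomal protein genes 11.4% and 14.8%. The 2 libraries shared 5 cell barcodes. Every gene listed above 0 was found in at least 5% of its library's cells, and a listing at 0 is not read as a count of 0: mt-Co3, found in 97.5% of KO 2M cells, and mt-Atp6, in 77.4%, were listed at 0 in the 3 other KO libraries. No fold is given against a listing at 0. Tgfbr2 and Apoe are named as removed in the names of the tables, so the knockout itself was not checked here. The sorted cells were checked against smooth muscle markers: in KO 2M, 10 of 10 were listed. Acta2 was seen in 100% of KO 2M cells, also in those described below as low in contractile UMIs, so its presence alone does not identify a cell. In KO 4M, 9 of those 10 were listed, each at least 2-fold lower than in KO 2M, and Myocd was listed at 0. For KO 4M the data therefore go against a plain smooth muscle label, and its cells are called by their library.

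Between 2 and 4 months the knockout cells of these libraries differed in most of their contractile genes and in the genes of cartilage matrix. The smooth muscle genes Acta2, Myl9, Cnn1 and Myh11 were each more than 20-fold lower in KO 4M, while the cartilage genes Col2a1, Acan, Comp and Chad were each at least 16.0-fold higher. After pseudogenes were left out, 8295 genes were listed in both libraries. Of these, 628 (7.57%) were at least 2-fold higher and 1445 (17.4%) at least 2-fold lower in KO 4M, and the median log2 ratio was -0.25. Past 4-fold there were 137 (1.65%) higher and 352 (4.24%) lower genes. The counting interval itself lay past 2-fold for 460 of the higher and 1088 of the lower genes. The shape of the comparison depends on the scaling: with trimmed mean scaling the median moved up by 0.25 on the log2 scale, and the calls became 968 higher and 1002 lower.

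The earlier steps of the same diet series were far smaller. From KO ND to KO 1M, 33 of 9266 genes (0.356%) were at least 2-fold higher and 17 (0.183%) at least 2-fold lower, 0.54% in all. From KO 1M to KO 2M, 87 of 8871 (0.981%) were higher and 56 (0.631%) lower, 1.61% in all. Over the same months in Apoe mice, 192 of 8498 (2.26%) were higher and 162 (1.91%) lower, 4.17% in all, beside 25% between KO 2M and KO 4M. No step was tested against another, since each rests on 1 library at either end.

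**Figure D1:**
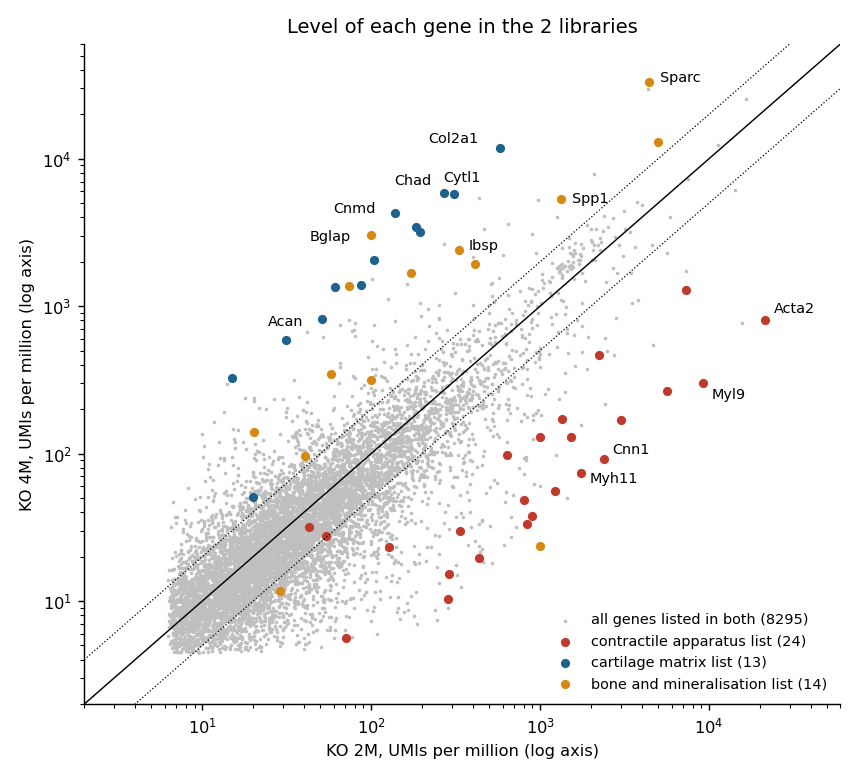
Level of each gene listed in both libraries, in CPM, KO 2M on the x axis and KO 4M on the y axis (log axes). The solid line marks equal levels and the dotted lines 2-fold; the 24 contractile genes (red) lie below the solid line and the 13 cartilage matrix genes (blue) above the upper dotted line, and the 14 bone genes are orange.

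The contractile list held 26 genes, all in the table. Of the 24 listed in both libraries, 22 were at least 2-fold lower and 0 at least 2-fold higher, with a median log2 ratio of -4.11 beside -0.25 for all 8295 genes. The summed level of all 26 was 63045 CPM in KO 2M and 4331 in KO 4M. Des, the muscle intermediate filament desmin, was at 175 in KO 2M and listed at 0 in KO 4M, and Pln, the calcium pump regulator phospholamban, at 12.8 and listed at 0.

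Acta2 encodes smooth muscle actin (chr19:34241090-34255590, minus strand, GRCm38). From ND to 4 months of HFD its level was 24612, 23420, 21484 and 802 CPM. KO 4M thus stood apart from the 3 earlier libraries, which lay close together. The ratio was 26.8-fold lower, a log2 ratio of -4.74 (95% interval -4.77 to -4.72). In the Apoe libraries Acta2 was at 19227 after 2 months and 11931 after 4.

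Myl9, the regulatory light chain of smooth muscle myosin (chr2:156775420-156781658), was at 9526, 9191, 9190 and 300 over the same libraries, 30.6-fold lower at the last step. Myh11, the smooth muscle myosin heavy chain, was at 2606, 2337, 1744 and 74.4 in the same order, with a log2 ratio of -4.55. Cnn1, calponin, which binds actin and slows myosin, was at 2929, 2481, 2376 and 91.5, with a log2 ratio of -4.70. All 3 had their lowest KO level at 4 months by a wide margin. Tagln, which encodes the actin binding protein SM22, was already lower at 2 months, at 1142, 1039 and 433 in the earlier libraries, and stood at 19.6 in KO 4M. Other members were the tropomyosin Tpm2 (5617 to 264.6 CPM), the myosin kinase Mylk (1218 to 56.2), the actin nucleator Lmod1 (801 to 48.1) and the myosin phosphatase inhibitor Ppp1r14a (834 to 33.3). Vcl, the adhesion protein vinculin, lay nearest to no difference (43.1 to 31.6).

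**Figure D2:**
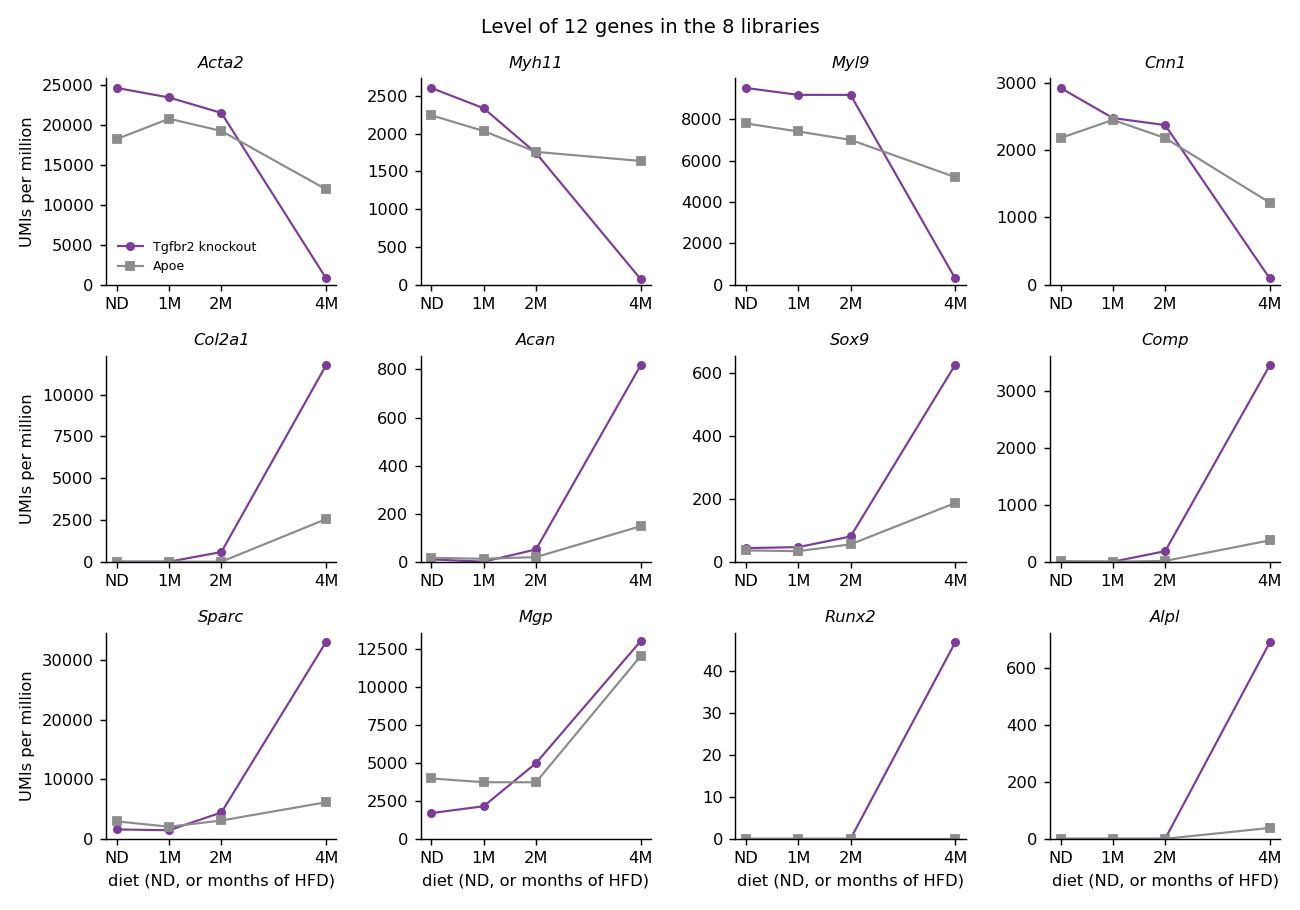
Level of 12 genes in CPM (y axes from 0) against diet (ND or months of HFD) in the Tgfbr2 knockout (purple circles) and Apoe (grey squares) libraries, 1 library per point and no error bars. Acta2, Myh11, Myl9 and Cnn1 are lowest in KO 4M, and Col2a1, Acan, Sox9 and Comp highest there; Mgp is at 13045 in KO 4M and 12059 in Apoe 4M.

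Many smooth muscle genes are known to be driven by serum response factor, which binds the CArG box, together with its coactivator myocardin (Myocd). With 22 of 24 contractile genes lower, the RefSeq promoter windows of its members (GRCm38.p6, 250 bases before to 50 after the start) were searched for the CArG box, and for near boxes in which 1 of the central A or T bases is a G or C. The CArG box reads the same way in its letters on either strand. Of 26 members, 22 had a window, and Myh11, Tagln and Actg2 were among those with none. A box or near box was found in 6 of 22 windows (27.3%), against 3050 of 27025 genes with a window (11.3%), and a full box in 4 (18.2%) against 488 (1.81%). The 6 stretches upstream of the RefSeq start are shown with boxes in capitals, on each gene's own strand. That start can differ from the gene spans given here: the Acta2 stretch lies inside the span given above. The Myl6 stretch lies inside its gene's annotated span (chr10:128490860-128494145). A match describes the letters and shows no binding.
Acta2 (chr19:34255383-34255472, minus strand, 2 near boxes): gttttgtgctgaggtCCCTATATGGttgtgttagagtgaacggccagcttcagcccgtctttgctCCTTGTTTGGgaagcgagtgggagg
Myl9 (chr2:156775288-156775389, plus strand, 1 box and 1 near box): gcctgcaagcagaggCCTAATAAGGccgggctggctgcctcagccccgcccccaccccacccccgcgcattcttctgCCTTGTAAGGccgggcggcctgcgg
Myl6 (chr10:128493035-128493074, minus strand, 1 box): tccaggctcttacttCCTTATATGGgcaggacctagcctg
Ldb3 (chr14:34588692-34588731, minus strand, 1 box): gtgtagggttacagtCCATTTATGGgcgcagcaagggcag
Vcl (chr14:20929156-20929195, plus strand, 1 box): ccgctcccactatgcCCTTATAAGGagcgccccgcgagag
Pdlim3 (chr8:45885372-45885411, plus strand, 1 near box): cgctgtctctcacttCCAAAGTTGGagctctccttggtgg

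These 6 genes did not move alike. Pdlim3, a scaffold of actin filaments, was 27.5-fold lower and Acta2 and Myl9 as given above. Myl6, the essential myosin light chain that non-muscle cells share, was 5.64-fold lower (7295 to 1293), and Vcl, which carries a full box, had a log2 ratio of -0.45. Among the 1126 genes at least 2-fold lower that had a window, 28 (2.49%) held a full box, beside 111 of 6556 compared genes (1.69%).

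The transcription factors known to act on these promoters were measured too. Myocd was at 47.6, 60.0 and 39.0 CPM in KO ND, KO 1M and KO 2M and was listed at 0 in KO 4M. Srf, the gene of serum response factor, was at 59.3, 51.0, 41.7 and 32.2, a log2 ratio of -0.37 at the last step, well inside 2-fold. Of the 9 muscle transcription factors listed in both libraries, 1 was past 2-fold: Gata6, at 197 in KO 2M and 79.5 in KO 4M.

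Cartilage matrix genes moved the other way. Of 28 such genes in the table, 13 were listed in both libraries, and 13 of 13 were at least 2-fold higher in KO 4M, with a median log2 ratio of 4.22. The other 15 were listed in KO 4M alone. The summed level of the list was 51.8, 34.3, 2046.5 and 49934 CPM from ND to 4 months.

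Col2a1, the type II collagen that forms the fibrils of cartilage (chr15:97975602-98004695, minus strand), was at 580 in KO 2M and 11749 in KO 4M, having been listed at 0 in both earlier KO libraries, a 20.3-fold step (log2 ratio 4.34, 4.31 to 4.37). Type IX and XI collagens, which coat and seed these fibrils, were mostly first listed at 4 months: Col9a1 at 922, Col9a2 at 1946, Col11a1 at 1673 and Col11a2 at 785.5, each listed at 0 in the 3 earlier KO libraries. Col9a3 was listed at both times, at 87.4 in KO 2M and 1397 in KO 4M. Col10a1, the collagen of hypertrophic cartilage, was listed in KO 4M alone, at 35.8.

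Aggrecan (Acan), the large proteoglycan that holds water in cartilage, was at 51.0 in KO 2M and 817 in KO 4M, 16.0-fold higher. Hapln1, the link protein that ties aggrecan to hyaluronan, was listed in KO 4M alone, at 917. Comp, a pentameric matrix protein, was at 185 and 3455, and the collagen binding Chad at 271 and 5880. Cnmd (chondromodulin) is a cartilage protein known to hold back vessel growth. With predicted genes left out, it had the largest ratio of all genes with at least 20 CPM, at 138 and 4281, 31.0-fold. Lubricin (Prg4), made at joint surfaces, was at 60.6 and 1338, and fibromodulin (Fmod) at 104 and 2068. Xylt1, which starts the sugar chains of proteoglycans and stands on no list, was at 14.0 and 296. The smallest step of the 13 was Matn2, at 19.9 and 51.1.

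Transcription factors of the cartilage program were measured as well. Sox9, the transcription factor that turns on Col2a1 and Acan in chondrocytes, was at 43.1, 46.3, 80.1 and 626 from ND to 4 months, a last log2 ratio of 2.96. Its partners Sox5 and Sox6 were at 11.9 and 54.4, and at 10.8 and 78.4. Runx2 and Sp7, which direct bone formation, were listed in KO 4M alone, at 46.8 and 46.9, and were listed at 0 in all 4 Apoe libraries. In all, 6 of 10 cartilage and bone transcription factors listed in both libraries were at least 2-fold higher and 0 lower, with a median of 1.69, and 4 more were newly listed. Zfp423 and Msx1 lay near no difference (log2 ratios 0.16 and -0.18).

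Genes of bone matrix and mineralisation followed in part. Of 14 listed in both libraries, 12 were at least 2-fold higher and 2 lower, with a median of 2.40. Bglap (osteocalcin), a secreted osteoblast protein, was at 99.6 in KO 2M and 3031 in KO 4M, and its neighbour Bglap2, a near copy between which reads may be split, was listed in KO 4M alone, at 1364. Ibsp, bone sialoprotein, was at 333 and 2387, and Spp1, osteopontin, at 1328 and 5299. Alpl, the phosphatase that releases phosphate for mineral, was newly listed at 692. Other members were Mgp, the matrix Gla protein, at 4994 and 13045, Enpp1, which makes pyrophosphate, at 20.2 and 141, and Ank, which exports it, at 99.2 and 314. The 2 lower members were Slc20a2, a phosphate carrier, at 28.9 and 11.7, and Sost.

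Sost encodes sclerostin, a secreted Wnt inhibitor best known from osteocytes (chr11:101962458-101967015). It had the smallest ratio of all compared genes with at least 20 CPM, predicted genes left out. Its level was 927, 1287, 999 and 23.5 from ND to 4 months, 42.5-fold lower at the last step (log2 ratio -5.41, -5.55 to -5.27), beside 1194 and 1114 in Apoe 2M and Apoe 4M. The secreted Wnt antagonists Frzb (270 to 2626) and Wif1 (103 to 744) were higher in KO 4M. Of 13 Wnt genes listed in both libraries, 4 were at least 2-fold higher and 4 lower, so the list as a whole had no common direction (median 0.06).

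**Figure D3:**
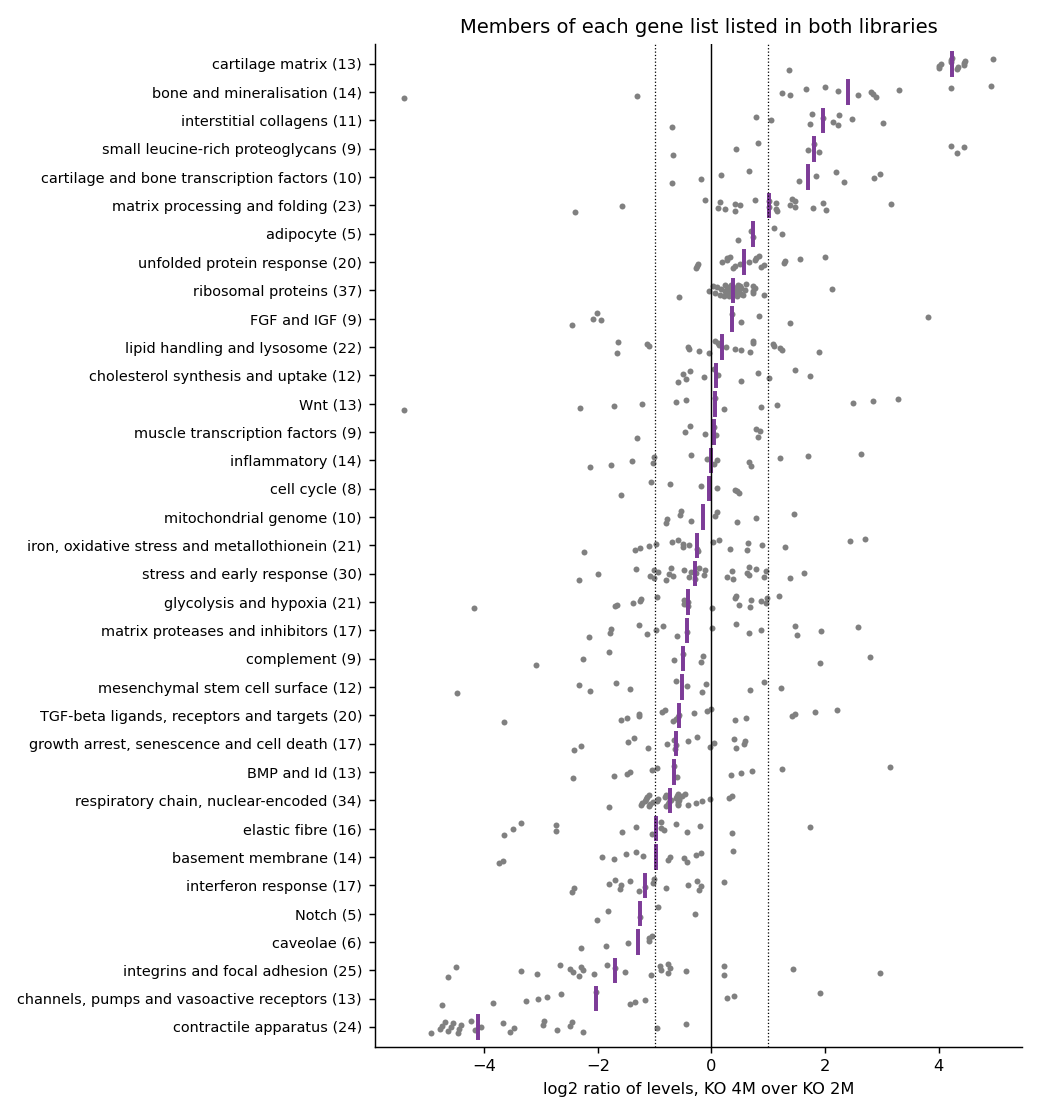
Log2 ratio of levels, KO 4M over KO 2M (x axis), for the members of 35 gene lists listed in both libraries (1 grey point per gene, the number in brackets), with the list median as a purple bar and 2-fold as dotted lines. The medians run from -4.11 for the contractile list to 4.22 for cartilage matrix.

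The remaining matrix split by type. Interstitial collagens were higher: 9 of 11 were past 2-fold and 0 lower (median 1.97), with Col1a2 from 646 to 3588 and Col1a1, the main collagen of bone and adventitia, from 412 to 1922. Small proteoglycans that bind collagen fibrils were higher in 6 of 9 and lower in 0, among them Dcn (decorin), at 29.1, 265, 2098 and 7820 from ND to 4 months. Lum (lumican) was at 29.8, 84.5, 1253 and 4051, so both were higher in each library than in the one before. Elastic fibre genes went the other way, with 8 of 16 at least 2-fold lower, 1 higher and a median of -0.97. Elastin (Eln) was at 714, 574, 368 and 55.0 in time order, its crosslinking enzyme Loxl1 at 211 in KO 2M and 18.8 in KO 4M, and Ltbp1, which stores latent TGF-beta on microfibrils, at 1239 and 98.3. Emilin1 was the higher member, at 163 and 541. Basement membrane genes were lower in 7 of 14 and higher in 0 (median -0.99), with Col18a1 from 621 to 46.7.

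Genes that fold and cut collagen were higher, where 7.57% of all 8295 genes were at least 2-fold higher and 17.4% lower. Of 23 genes of matrix processing and folding, 13 were at least 2-fold higher and 2 lower, with a median of 1.01. Serpinh1, the collagen chaperone, was at 898.5 in KO 2M and 3104 in KO 4M, and Pcolce, which speeds the removal of the procollagen tail, at 126 and 1122. The elastin and collagen crosslinker Lox was lower, at 68.6 and 23.1. Of 20 genes of the unfolded protein response, which answers a crowded endoplasmic reticulum, 4 were at least 2-fold higher and 0 lower, with a median of 0.58. Pdia6 was at 140 and 414 and Xbp1 at 94.5 and 229, while Hspa5, the main chaperone of that compartment, had a log2 ratio of 0.42. Among matrix proteases, 4 of 17 were higher and 5 lower: Mmp2 stood at 65.0 and 389, the collagenase Mmp13 was newly listed at 235, and the cysteine protease Ctsl was at 395 and 88.5.

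With predicted genes left out, the 10 largest gains in CPM were those of Sparc, Cst3, Col2a1, Malat1, Mgp, Dcn, Chad, Cytl1, Sdc4 and Cnmd. Sparc, a collagen binding glycoprotein of bone and cartilage, was at 4421 and 33043, and Cst3, the protease inhibitor cystatin C, at 4336 and 29485. Malat1, a nuclear RNA found in most cells, was inside 2-fold at a log2 ratio of 0.62. The 10 largest losses were Acta2, Tmsb4x, Myl9, Actb, Myl6, Igfbp7, Tpm2, Lgals1, Vim and Csrp1. Tmsb4x, which binds actin monomers and is made by many cell types, was at 15668 in KO 2M and 771 in KO 4M, 20.3-fold lower. Actb, cytoplasmic actin, was at 14205 and 6101, and Vim, the mesenchymal filament vimentin, at 5614 and 2306, so both stayed among the well measured genes of KO 4M.

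Several of the genes with the smallest ratios stand on no list here. After Sost came Efhd1, a calcium binding protein of mitochondria, at 246 CPM in KO 2M and 7.49 in KO 4M, and Pcp4l1 at 287 and 8.91. Sh3bgr was at 516 and 17.98, and Fbxl22, an F-box protein of muscle, at 461 and 18.4. Bcam, the laminin receptor Lutheran, was at 611 and 23.9, and Itih4, a secreted plasma protein, at 1447.5 and 49.9. In the share of cells with at least 1 UMI, Efhd1 was seen in 75.5% of KO 2M cells and 5.07% of KO 4M cells, where the median cell was deeper. Its level in the Apoe libraries was 224 after 2 months and 282 after 4.

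The genes with the largest ratios were seen in few KO 2M cells and in most KO 4M cells. Cnmd was seen in 9.01% and 99.6% of cells, Omd, an osteoblast proteoglycan, in 7.86% and 88.4%, and Chadl, a relative of Chad, in 7.63% and 71.3%. Snorc, a cartilage membrane proteoglycan, was at 194 and 3187 CPM. Clec11a, a bone growth factor, was at 41.5 and 669.5. Tnfrsf11b, osteoprotegerin, the decoy receptor that holds back bone resorption, was at 12.2, 64.0, 171 and 1686 from ND to 4 months, higher in each library than in the one before.

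Newly listed genes numbered 1293, of which 178 reached 20 CPM, and 851 were seen in under 10% of KO 4M cells. Together they held 3.33% of KO 4M UMIs. Of the 1293, 864 were at 0 in KO ND and KO 1M as well, and 267 were listed in Apoe 4M. The 15 with the highest levels were cartilage or bone genes in large part (Col9a2, Col11a1, Otor, Bglap2, Col9a1, Hapln1, Col11a2, Alpl and Scrg1). The others were Chil1 (1567), a chitinase-like protein of cartilage and inflamed tissue, Penk (704), the precursor of enkephalin, Srpx (661), Hp (532), the haemoglobin carrier haptoglobin, Fap (425), a protease of activated fibroblasts, and the Wnt receptor Fzd9 (409).

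Genes no longer listed in KO 4M numbered 744, of which 684 had been listed in both KO ND and KO 1M and 584 were listed in Apoe 4M. Together they held 1.44% of KO 2M UMIs, and 162 of them had reached 20 CPM. Muscle genes were among the highest: Des at 175 and Kcnmb1, the subunit that sets calcium sensitivity of the large potassium channel, at 163. Igfbp2 was at 206, the signalling regulator Rgs4 at 158, Optc at 148, the microfibril protein Mfap4 at 128 and the vascular amine oxidase Aoc3 at 127. The mitochondrial genes mt-Co3 (672) and mt-Atp6 (219) headed the order, but the ND and 1 month KO libraries had both at 0 too, while 10 other mitochondrial genes were listed in both KO 2M and KO 4M, so this listing is read no further.

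Genes for sensing load and tone were lower beside the contractile ones. Of 13 channels, pumps and vasoactive receptors listed in both libraries, 10 were at least 2-fold lower and 1 higher (median -2.04), and 9 more were no longer listed. Gucy1b1, a subunit of the nitric oxide receptor guanylate cyclase, was at 259, 259.5, 187 and 6.99 in time order, and its partner Gucy1a1 at 245 in KO 2M and 17.0 in KO 4M. The higher member was Kcnma1, the pore of the large potassium channel, at 36.5 and 137, whose muscle subunit Kcnmb1 was the one no longer listed. Caveolae genes were lower in 6 of 6 (median -1.29), with Cav1 at 734 and 204. Of 25 integrin and focal adhesion genes, 15 were lower and 2 higher (median -1.70). Itga8 was at 718 and 32.0, Itgb1, the shared beta subunit, at 949 and 188, while the collagen II receptor subunit Itga10 was at 11.01 and 85.7.

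Signalling genes were mixed. Over all 8295 genes compared, 7.57% were at least 2-fold higher and 17.4% lower. The receptor gene Tgfbr1, partner of the deleted one, was at 57.7 in KO 2M and 20.7 in KO 4M. Of 20 genes of TGF-beta ligands, receptors and targets, 4 were at least 2-fold higher and 5 lower. Among known targets, Ccn2 was at 217 and 580.5 and Thbs1 at 107 and 376. Of 13 BMP and Id genes, 2 were higher and 5 lower, with the transcriptional inhibitor Id3 at 3484 and 1057 and Id4 at 396 and 73.3. Notch genes were lower in 3 of 5, higher in 0, and 4 more (Notch3, Dll1, Hey1, Heyl) were no longer listed; the target Hes1 was at 1110 and 275. Fgfr3, a receptor of growth plate chondrocytes, was at 11.7 and 164 (log2 ratio 3.81).

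Metabolic and immune lists were counted in the same way, beside 7.57% of all 8295 genes at least 2-fold higher and 17.4% lower. Of 34 nuclear genes of the respiratory chain, 10 were at least 2-fold lower and 0 higher, with a median of -0.72, and Cox4i1 was at 1274 and 664. Of 37 ribosomal protein genes, 1 was past 2-fold (Rps6, higher) and 35 were above 0, with a median of 0.37. Interferon response genes were lower in 11 of 17 and higher in 0 (median -1.18), with Ifitm3 at 1289 and 236. Glycolysis and hypoxia genes were lower in 6 of 21 and higher in 1, and the vasodilator peptide gene Adm was at 108 and 5.96. The stress and early response list, which dissociation of tissue can also move, was lower in 6 of 30 and higher in 2, near those shares. Its member Fos was at 2437 and 610.

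Inflammatory genes did not share a direction: of 14 listed in both libraries, 3 were at least 2-fold higher and 5 lower, and 3 more were newly listed. The shares of all 8295 genes were 7.57% higher and 17.4% lower. Ptgs2, the inducible cyclooxygenase, was at 31.1 and 193, and Lcn2, an iron-siderophore carrier of the acute phase, was newly listed at 369.5. The adhesion molecule Vcam1 was at 91.0, 146, 571 and 130 from ND to 4 months, so its highest KO level was at 2 months. The chemokine Cxcl12 was at 238 and 70.0. Of 9 complement genes, 2 were at least 2-fold higher (C3 and C4b) and 3 lower, among them Serping1 and Cd59a, which restrain complement.

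Of 22 genes of lipid handling and the lysosome, 5 were at least 2-fold higher and 4 lower, beside 7.57% and 17.4% of all 8295 genes. Lgals3 (galectin 3), a marker of lipid-laden and modulated smooth muscle cells, was at 128, 216, 599 and 2219 from ND to 4 months. It was seen in 71.6% of KO 2M and 99.5% of KO 4M cells, not set to a common depth. The cholesterol exporter Abca1 was at 33.9 and 15.5. Among 21 genes of iron and oxidative stress, 3 were higher and 4 lower: the transferrin receptor Tfrc was at 13.6 and 73.9, ceruloplasmin (Cp) at 37.4 and 242, and the secreted superoxide dismutase Sod3 at 839 and 178. Of 17 growth arrest genes, 5 were lower and 0 higher, with Gadd45g at 1397 and 260. Cdkn2a was newly listed at 35.2, in 25.6% of cells, while Cdkn1a was at 565 and 766.

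**Figure D4:**
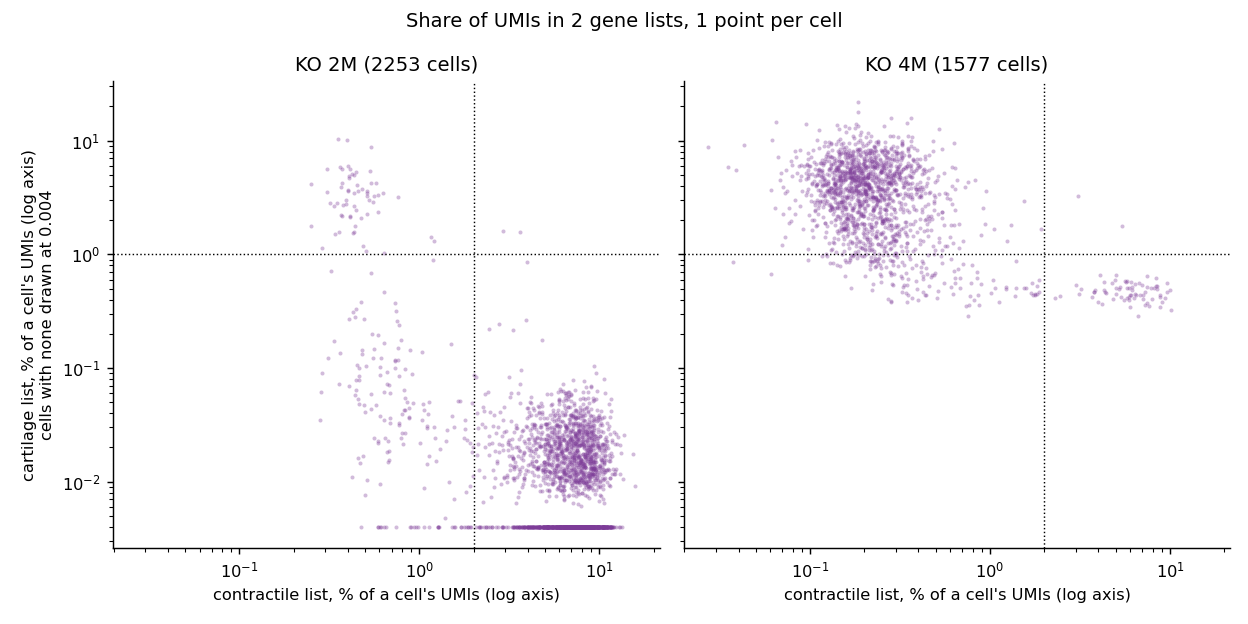
Each point is 1 cell of KO 2M (left) or KO 4M (right): the share of its UMIs in the contractile list (x axis, %, log) against its share in the cartilage matrix list (y axis, %, log; cells with none are drawn at 0.004). Shares count only the list members listed in both libraries. Dotted lines mark 2% and 1%. Most KO 2M cells lie at the lower right and most KO 4M cells at the upper left.

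The same shift was seen cell by cell. A cell's share counts only the list members listed in both KO 2M and KO 4M, 24 contractile and 13 cartilage genes. The 15 newly listed cartilage genes are left out of it. The contractile share of a cell's UMIs had a median of 6.89% in KO 2M (5th to 95th percentile 0.62% to 10.6%) and 0.22% in KO 4M (0.11% to 1.79%). Only 25 of 1577 KO 4M cells (1.59%) reached the KO 2M median. The cartilage share had a median of 0.012% in KO 2M and 3.53% in KO 4M, and 26 of 2253 KO 2M cells (1.15%) reached the KO 4M median.

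With KO 4M cells in 4 groups of near equal size by cartilage share, whose medians were 0.89%, 2.59%, 4.41% and 6.88%, the median contractile share was 0.31%, 0.20%, 0.19% and 0.20%. Of the 74 cells with at least 2% contractile UMIs, 72 were in the group lowest in cartilage share, 2 in the next and 0 in the others. The groups' median depths were 8070, 10760, 12880 and 12870 UMIs, so the group lowest in cartilage share was also the shallowest, and the part of depth in this was not tested.

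To describe where in the libraries the difference lay, cells were put into ranges: contractile-rich with at least 2% of UMIs in the contractile list and under 1% in the cartilage list, cartilage-rich in the opposite case, rich in both, or low in both. The shares are those described above, without the newly listed cartilage genes. These cut points were set after the distributions had been seen, and a range is not a cell type. In KO 2M, 2024 cells (89.8%, 88.5% to 91.1%) were contractile-rich, 62 (2.75%, 2.12% to 3.51%) cartilage-rich, 165 (7.32%) low in both and 2 rich in both. In KO 4M the order was turned round: 72 (4.57%, 3.59% to 5.72%) were contractile-rich, 1349 (85.5%, 83.7% to 87.2%) cartilage-rich, 154 (9.77%) low in both and 2 rich in both. Within 25% of the contractile line lay 58 KO 2M and 15 KO 4M cells, and within 25% of the cartilage line 6 and 126. With that line at 0.5% or 2% the cartilage-rich share of KO 4M was 93.2% or 70.1%, and that of KO 2M 2.88% or 2.22%. The smaller ranges of KO 4M moved more: low in both held 34 cells (2.16%) or 397 (25.2%), contractile-rich 46 or 73, and rich in both 28 or 1, so values within these ranges depend on the line. Low-in-both cells were 6 in KO ND and 65 (4.99%) in KO 1M, and cartilage-rich cells 0 in both, which allows up to 0.327% and 0.283%. In Apoe 4M 73 of 1235 cells (5.91%) were cartilage-rich.

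**Figure D5:**
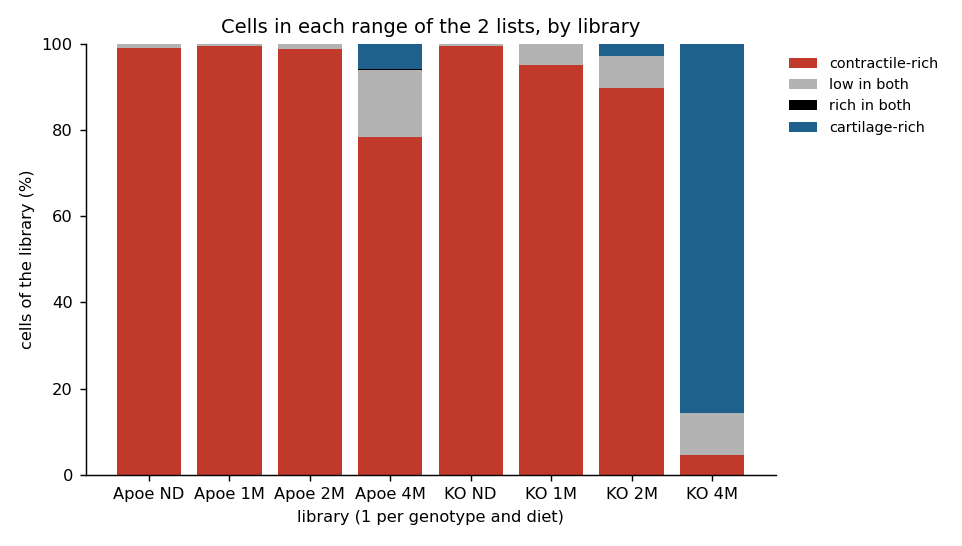
Share of the cells of each of the 8 libraries (%) in the 4 ranges, 1 bar per library. The contractile-rich range holds 89.8% of KO 2M cells and 4.57% of KO 4M cells, and the cartilage-rich range 2.75% and 85.5%.

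Free RNA from lysed cells can enter droplets. In the 72 contractile-rich KO 4M cells, thinned to 3000 UMIs each, Col2a1 was seen in 97.2% of cells (98.6% unthinned), although these cells had a contractile share like that of KO 2M cells, of whose contractile-rich cells 6.39% had it (14.4% unthinned). Their median depths were 7204 and 7484 UMIs. Chad was seen in 97.2% of those 72 cells and in 99.2% of all KO 4M cells, so a UMI of these genes did not tell the ranges of KO 4M apart and is not read as expression. Empty droplets were not analysed here and no doublet caller was run, so the parts of free RNA, doublets and expression in these cells were not tested. Acan and Sox9 differed more between ranges: Acan was seen in 26.4% of the 72 cells and 81.2% of the cartilage-rich ones, and Sox9 in 31.9% and 77.6%. Acan counts in the cartilage share that cuts the ranges, so part of its difference is fixed by the choice of cells. Snorc was seen in 43.1% and 81.9%, while Cnmd (80.6% and 96.7%), Cytl1 (84.7% and 94.5%) and Comp (75% and 86.0%) differed less. Acta2 was seen in 96.8% of the 62 cartilage-rich KO 2M cells and in 28.5% of the 1349 cartilage-rich KO 4M cells.

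Within a range fewer genes were past 2-fold. The ranges are cut on the shares that differ between the libraries, and the counts include the genes of both lists, so part of this is fixed by the choice of cells. Among contractile-rich cells, 258 of 6071 genes with at least 20 CPM (4.25%) were at least 2-fold higher in KO 4M and 180 (2.96%) lower, where the whole libraries gave 405 and 1288 for the same genes. Among cartilage-rich cells the counts were 265 (5.08%) and 138 (2.65%) of 5212 genes, against 595 and 643. Cells low in both gave 401 (6.48%) and 155 (2.5%) of 6193, against 562 and 1118. Only 528401 UMIs stood behind the contractile-rich cells of KO 4M and 938991 behind the cartilage-rich cells of KO 2M, so low genes are loosely measured there. Interval and count alike take each range as 1 sum from 1 library.

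Other lists were read within the ranges too, and they did not all shrink. Channels, pumps and vasoactive receptors, at a median of -2.04 in the whole libraries, had 0 of 13 genes past 2-fold in either direction among contractile-rich cells (median 0.15). Caveolae genes had 0 of 6 there (median -0.12) and integrin and focal adhesion genes 1 of 22 lower (median 0.00). In the same cells, however, interstitial collagens were higher in 5 of 10 (median 1.00) and small proteoglycans in 5 of 9 (median 1.91). Bone genes were higher in 7 of 14 (median 0.95), and each of these lists had 0 lower. The cartilage matrix list, on which the ranges are cut, was higher there in 13 of 13 (median 4.63). The sum over all 28 members, newly listed ones included, was 150 CPM in KO 2M and 5409 in KO 4M. The list was higher in 12 of 13 in low-in-both cells (median 3.32) and in 2 of 13 in cartilage-rich cells (median 0.35). The part of free RNA in these gains was not tested. In low-in-both cells bone genes were higher in 7 of 13 and lower in 1 (median 1.00). Interstitial collagens, at 1.97 in the whole libraries, had a median of -0.19 among cartilage-rich cells, with 2 of 10 higher, and matrix processing genes -0.24, with 0 of 22 higher and 1 lower. Bone genes were 0 of 13 higher and 3 lower in the cartilage-rich range: Ibsp stood at 6267 in KO 2M and 2522 in KO 4M, Spp1 at 10627 and 5165 and Sost at 35.1 and 2.76. Sost was at 999 CPM in the whole KO 2M library, and the part of free RNA in these lower values was not tested. Respiratory chain genes kept a median of -0.50 in the cartilage-rich range with 0 of 34 past 2-fold.

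Some genes did differ inside the cartilage-rich range. C3, the central complement protein, was at 6.39 CPM in KO 2M and 81.1 in KO 4M, the chemokine Cxcl1 at 8.52 and 103, and Col8a1 at 13.9 and 131. Their KO 2M levels rest on few of 938991 UMIs, and these genes were picked after their values were seen. Of 30 stress and early response genes, 13 were at least 2-fold higher and 0 lower in KO 4M there, with a median of 0.62: Egr1 was at 129 and 501, Jun at 127 and 461 and Junb at 258 and 808. In the contractile-rich range the same list was lower in 7 of 29 and higher in 2 (median -0.65), with Egr1 at 889 and 486, Fos at 2605 and 865 and Atf3 at 741 and 184. The 2 higher members were the heat shock gene Hspa1b, at 62.2 and 293, and Egr3. Whether the ranges differ in this was not tested.

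In cells low in both lists several matrix genes were lower at 4 months. Dcn was at 16342 CPM in these cells of KO 2M and 7737 in those of KO 4M, Mgp at 19110 and 11161, and Eln at 1984 and 482. The surface antigen Ly6a, a fibroblast and progenitor marker, was at 1423 and 461. Higher in KO 4M were Ibsp, at 10.3 and 1652, and Cox4i2, a cytochrome oxidase subunit of low oxygen, at 129 and 436. Ibsp was at 197 in the contractile-rich cells of KO 4M as well, and the part of free RNA in these values was not tested.

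Genes outside cartilage and bone also differed among contractile-rich cells. Rgs5, a signalling regulator typical of pericytes and arterial muscle, was at 58.0 CPM in KO 2M and 757 in KO 4M. The protease Mmp3 was at 25.1 and 301 and Thbs1, thrombospondin, at 85.7 and 600. C3 was at 7.65 and 114. C3 and Thbs1 were higher in the cartilage-rich range as well, Thbs1 at 91.6 and 385. In whole-library sums Rgs5 was at 55.1 and 34.4, so its difference within the range was not visible there.

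Markers of other cells the sort could hold were counted in both libraries. Of 17 macrophage markers 0 were listed in KO 2M and 3 in KO 4M (Cd68, Lyz2 and Cd14, 52.0 CPM in sum), with C1qa, C1qb and C1qc listed in neither. In KO 4M 3 cells held 3 or more of these markers. Lymphocyte, erythroid and mesothelial markers were listed in neither. Endothelial markers summed to 217 in KO 2M and 245 in KO 4M, with Pecam1 at 34.0 and then listed at 0, and 6 and 3 of 15 markers listed. Schwann cell markers summed to 606 and 510, with 3 of 11 listed in both libraries, and S100b, which chondrocytes also make, was at 20.3 and 239. Fibroblast markers summed to 5416 and 14635, chiefly Dcn, Lum and Gsn. Of 9 listed in both libraries 3 were at least 2-fold higher, Pdgfra at 7.29 and 17.0 among them, and 3 lower, Mfap5 at 164 and 16.0 among them, and their part in the matrix results was not tested. Without the 250 KO 2M and 533 KO 4M cells that held 3 or more markers of any of the 7 other types, the counts were 716 higher and 1569 lower. Of the 533 KO 4M cells, 492 held the 3 listed Schwann markers (S100b, Ncam1 and Pmp22), and 71 held 3 endothelial ones. In KO 2M these were 74 and 184 cells. Since chondrocytes make S100b too, this filter cannot tell Schwann cells from cells with cartilage genes.

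The Apoe libraries, without the receptor knockout, were compared over the same months, and their values are set side by side. Over the 7860 genes compared in both genotypes, the log2 ratios had a Pearson r of 0.20 and a Spearman rho of 0.10 across genes, which are not independent replicates. Genes listed at 0 in Apoe 2M or Apoe 4M are left out of this, Col2a1, Chad and Cytl1 among them. Of 532 genes at least 2-fold higher in KO, 73 were so in Apoe (13.7%, and 40.8% of the 179 of Apoe) and 7 were lower there, where 2.28% of all 7860 genes were higher in Apoe and 6.77% in KO. Of 1430 lower in KO, 60 were lower in Apoe (4.196%, and 45.5% of the 132 of Apoe) and 19 were higher, where 1.68% of all genes were lower in Apoe and 18.2% in KO. Of the cartilage genes, Col2a1 was listed at 0 in Apoe 2M and at 2545 in Apoe 4M, Acan was at 19.1 and 148, and Sox9 at 55.1 and 186. The summed level of the cartilage matrix list was 73.5 CPM in Apoe 2M and 6617 in Apoe 4M. Of its 6 genes compared in Apoe, 4 were at least 2-fold higher and 0 lower (median 2.87). The contractile list had a median log2 ratio of -0.37 in Apoe, with 2 of 25 genes at least 2-fold lower and 1 higher. No difference between the genotypes was tested.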

How the data were processed

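The deposited tables hold log2 values of scaled UMI counts plus 1 per gene and cell. The authors scaled cells by trimmed means and removed Apoe and Tgfbr2, per the names of the deposited tables. The submitters' processing notes name GRCm38, Subread 1.6.0, featureCounts, STAR and UMI-tools, in no stated order. Each cell's values were whole multiples of 1 UMI in 100% of entries (tolerance 0.01), so whole UMIs were recovered and summed per library. Levels are UMIs per 1000000 (CPM), and ratios carry exact conditional binomial 95% intervals. Shares of cells carry exact Clopper-Pearson intervals. Both cover counting error only. With 1 library per group no test was run.

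Pseudogenes were left out (372 of 11221 genes), and 11214 genes matched the annotation. Genes were compared where listed in both libraries. Named genes were the 15 with the largest and the 15 with the smallest ratio at 20 or more CPM, the 15 highest newly listed and 10 highest no longer listed, the 10 largest gains and 10 largest losses, and list members past 2-fold or among the 4 highest of a list. Predicted genes (Gm plus digits, names ending Rik or -ps) were left out of these rankings. Genes named within ranges of cells, and a few list members nearest to no difference, were chosen after their values were seen. The members and the 35 gene and 12 marker lists were chosen with earlier results of these data known. A few genes that the rule names are not reported here. No doublet caller was run. Cells were thinned to 3000 UMIs for shares of cells with a gene. Promoter windows are from RefSeq. On simulated counts for the 8295 genes of KO 4M against KO 2M, 100% of 200 changed genes passed 2-fold and 95.5% of intervals held the true ratio. The changed genes were given folds past 2-fold and the counts held counting error only, so their passing was fixed by the setting. The simulation checks the calculation and cannot speak to differences between animals or libraries. Python 3.11.15, numpy 2.4.6, scipy 1.17.1, pandas 2.3.3 and matplotlib 3.10.9 were used.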

Additional observations from a re-analysis of the deposited data

Results flagged for a closer look

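Tagln and Sfrp2 were past 2-fold in opposite directions in the 2 genotypes between 2 and 4 months, which is why they are given here. The difference between the genotypes was not tested, since each group has 1 library. Tagln, the actin binding protein SM22, had a log2 ratio of -4.46 in the knockout (433 to 19.6 CPM) and 1.34 in Apoe (330.1 to 835.3). Sfrp2, a secreted Wnt modulator, had -2.31 in the knockout (38.3 to 7.70) and 1.34 in Apoe (44.5 to 112.8).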

How the results depend on the processing

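All 44 named genes listed in both libraries kept their direction under each of the 9 alternatives planned for ratios, and 42 to 44 stayed on their side of 2-fold. They were chosen for extreme ratios, gains or losses in these data, so this was largely fixed by the choice. Among the alternatives, the filter at 20 CPM cannot change a ratio. The deposited tables that hold both genotypes at 1 diet gave the same counts, 628 and 1445. The count of genes at least 2-fold higher (628) was 968 with trimmed mean scaling, 966 with the median ratio set to 0, 135 from differences of the mean deposited log2 values and 137 at 4-fold. The count of lower genes (1445) was 137 from the deposited log2 values and 352 at 4-fold. The deposited values are log2 of scaled counts plus 1, here averaged over cells. A difference of 1 between such means is not a 2-fold level, so 135 and 137 are not like the other counts. Higher genes were 30.3% of calls, 49.1% with trimmed mean scaling, 48.9% with the median at 0 and 49.6% from the deposited log2 values. At 20 or more CPM, newly listed genes were 178 of 1293 and no longer listed genes 162 of 744. The ranges of cells were chosen after seeing the data. Within contractile-rich, cartilage-rich and low-in-both cells, 258, 265 and 401 genes were higher (58.9%, 65.8% and 72.1% of calls) and 180, 138 and 155 lower. Of list medians, 27 of 40, 23 of 42 and 30 of 42 kept their sign in these ranges. Those past 2-fold in the whole libraries that turned are given here. In cartilage-rich cells they were bone -0.26, interstitial collagens -0.19, matrix processing -0.24, osteoblast markers -0.65 and interferon 0.24. The Notch median turned to 0.39, 0.62 and 0.036 and that of pericyte markers to 0.45, 0.055 and 0.036 in contractile-rich, cartilage-rich and low-in-both cells, and that of channels to 0.15 and 0.25 in contractile-rich and cartilage-rich cells. Single genes that turned were Sparc (-0.58), Cst3 (-0.13), Dcn (-0.45) and Vim (0.0030) in cartilage-rich cells, Mgp (-0.78), Dcn (-1.08) and Actb (0.53) in low-in-both cells, and Actb (0.36) and Igfbp7 (0.015) in contractile-rich cells. Each range holds fewer cells than its library, and the cause of these shifts was not tested. No paired analysis was possible because each group has 1 library, and for the same reason no library could be left out. Depth limits low genes, and a listing at 0 is not a measured 0.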
